A study of Arabidopsis thaliana with 12 samples.

Results

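The GH3 auxin-conjugating enzymes described here are 6 genes of Arabidopsis: GH3.1 (AT2G14960), GH3.2 (AT4G37390), GH3.3 (AT2G23170), GH3.5 (AT4G27260), GH3.6 (AT5G54510) and GH3.17 (AT1G28130). They were taken by gene identifier from the 27715 genes of the deposited expression table, and all 6 were found. They were chosen by their expression across the 4 groups of these same libraries, so their levels and changes are a description and no p-values are given for them. Where a member is said to be called, its value passed the threshold applied to all tested genes, and nothing is concluded from that. Polyadenylated RNA was sequenced from flowers of stages 1 to 12 in 4 groups of 3 libraries: wild type (labelled WT) at 22 °C, wild type at 38 °C, XBAT31 mutant at 22 °C and XBAT31 mutant at 38 °C. Heat lasted 3 hours, and each library came from 9 flowers. The labels call the replicates biological, but name no allele, number of lines or accession, and XBAT31 codes for an ankyrin-repeat protein with the RING domain of many E3 ubiquitin ligases.

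GH3 enzymes join small acid hormones to amino acids. The members here belong to the branch that acts on indole-3-acetic acid (IAA), the main auxin: conjugates to aspartate or glutamate are largely bound for breakdown, whereas some other conjugates can be split again by amidohydrolases to release the hormone. Several GH3 genes are themselves switched on quickly by auxin, through auxin response factors (ARFs) that bind the letters TGTCTC, the auxin response element, and through the removal of Aux/IAA repressors by the TIR1/AFB receptors, so the enzymes form a feedback that lowers free auxin. In flowers, auxin is known for its part in organ initiation, stamen growth and pollen development.

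The libraries held from 44983198 to 63088433 deposited counts. Of the 27715 genes, 23585 were tested and all 6 members were among them, although GH3.1 passed the low-count filter only through the libraries outside wild type at 38 °C. XBAT31 messenger RNA was lower in the mutant by 0.93 at 22 °C (log2, SE 0.08, edgeR adjusted p = 8.61e-04) and by 1.15 at 38 °C (SE 0.08, edgeR adjusted p = 6.98e-05), so transcript remained in the mutant. All 7 floral identity markers, such as AP3 and AG, were above 0 in every library. On the second principal component (14.6% of variance) 3 libraries stood apart: mutant 22 °C replicate 2, mutant 38 °C replicate 1 and wild type 38 °C replicate 2. The summed level of 6 markers of maturing pollen ranged from 844 to 5036 FPKM (fragments per unit of transcript length and of library depth), that of 6 tapetum markers from 56.4 to 179, and that of 4 green-tissue markers from 1383 to 5664, with overlap between all groups and no marker at 0 throughout a group. The sum of the 7 floral markers did not overlap between temperatures in either genotype. It was 649 to 678 FPKM at 22 °C and 608 to 640 at 38 °C in wild type. In the mutant it was 650 to 708 FPKM at 22 °C and 603 to 630 at 38 °C. The part of all these markers in the results below was not tested.

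The upstream sequences of 2 pairs of members are shown because the genes of each pair are each other's closest relatives in the set, so that near copies can be read side by side with their values, with 84.1% identical coding bases between GH3.5 and GH3.6 and 81.4% between GH3.2 and GH3.3. Each run is the 300 bases before the start of the gene in the RefSeq annotation of TAIR10.1, read 5′ to 3′ on the gene's strand. The windows are chr4:13653279-13653578 (plus strand) for GH3.5, chr5:22133689-22133988 (minus) for GH3.6, chr4:17579318-17579617 (plus) for GH3.2 and chr2:9866563-9866862 (minus) for GH3.3. Capitals mark matches to the letters searched.
GH3.5: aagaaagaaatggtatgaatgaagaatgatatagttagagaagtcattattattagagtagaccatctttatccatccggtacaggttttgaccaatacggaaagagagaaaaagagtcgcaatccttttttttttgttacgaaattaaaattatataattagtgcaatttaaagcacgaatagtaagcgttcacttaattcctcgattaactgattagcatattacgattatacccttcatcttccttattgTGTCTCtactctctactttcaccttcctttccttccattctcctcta
GH3.6: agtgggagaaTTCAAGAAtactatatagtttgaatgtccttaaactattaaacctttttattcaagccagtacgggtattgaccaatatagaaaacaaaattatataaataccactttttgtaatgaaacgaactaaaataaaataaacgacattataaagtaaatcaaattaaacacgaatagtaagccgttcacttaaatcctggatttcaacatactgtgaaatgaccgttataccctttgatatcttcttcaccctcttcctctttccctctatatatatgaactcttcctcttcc
GH3.2: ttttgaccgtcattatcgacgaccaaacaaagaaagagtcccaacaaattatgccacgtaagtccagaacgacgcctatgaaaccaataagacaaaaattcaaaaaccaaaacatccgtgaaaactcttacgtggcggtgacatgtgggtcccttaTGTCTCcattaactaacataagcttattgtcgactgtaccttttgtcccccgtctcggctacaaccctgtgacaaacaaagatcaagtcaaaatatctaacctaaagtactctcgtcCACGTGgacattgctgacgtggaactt
GH3.3: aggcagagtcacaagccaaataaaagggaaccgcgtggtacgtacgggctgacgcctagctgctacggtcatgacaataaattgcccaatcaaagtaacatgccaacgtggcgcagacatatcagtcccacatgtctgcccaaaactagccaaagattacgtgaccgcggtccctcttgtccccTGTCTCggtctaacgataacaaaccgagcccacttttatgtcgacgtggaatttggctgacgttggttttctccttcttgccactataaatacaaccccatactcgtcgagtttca

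The letters TGTCTC on either strand were found in the windows of GH3.2, GH3.3 and GH3.5, which is 3 of 6 members, and in none of the 13 other GH3 genes; 13% of 26109 windows of the same length hold them. Counted from the gene start, the match began at -47 in GH3.5, -116 in GH3.3 and -144 in GH3.2. The letters TTCNNGAA, one of the inverted repeats within heat shock elements, were found in GH3.1 and GH3.6 among the members and in GH3.8 and GH3.14 among the 13 other GH3 genes, against 9.41% of all windows. The same half-sites in the other order, GAANNTTC (11.4% of windows), were in no window of the 19 GH3 genes. The variant auxin element TGTCGG (4.97%) was in no member's window and in 1 of the 13 others (GH3.19). The start in the deposited table lies downstream of the RefSeq start by 0 bases in GH3.3, 10 in GH3.6, 30 in GH3.5, 39 in GH3.2, 117 in GH3.17 and 127 in GH3.1, so positions depend on the annotation. Among the 13 other GH3 genes this distance was 1734 bases in GH3.10, 769 in GH3.9 and 0 to 155 in the rest. The windows of GH3.10 and GH3.9 thus lie far from the deposited start. The G-box letters CACGTG (7.33%) occurred in GH3.2 alone among the members, from position -27, and the window of GH3.17 held none of the 5 motifs. None of the 5 motifs overlapped another in these windows. GH3.5 and GH3.6 shared a run of 14 bases, cacgaatagtaagc, at the same distance from the start (positions -125 to -112), and the longest run shared by GH3.2 and GH3.3 was 9 bases. In the other pairs of members the longest run was 7 to 13 bases, with 13 in GH3.1 and GH3.6. A match is a description of letters only.

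By level per kilobase, the 6 genes kept 1 order of group means in all 4 groups: GH3.6, GH3.5, GH3.3, GH3.2, GH3.17 and GH3.1, from high to low. GH3.6 and GH3.5 overlapped between libraries in wild type at both temperatures and in the mutant at 22 °C, as did GH3.5 and GH3.3 in both genotypes at 22 °C. GH3.3 and GH3.2 overlapped in wild type at 38 °C, where their means were 5.87 and 5.85 FPKM, and GH3.17 and GH3.1 in the mutant at 22 °C. In the mutant at 38 °C no neighbours overlapped.

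**Figure D1:**
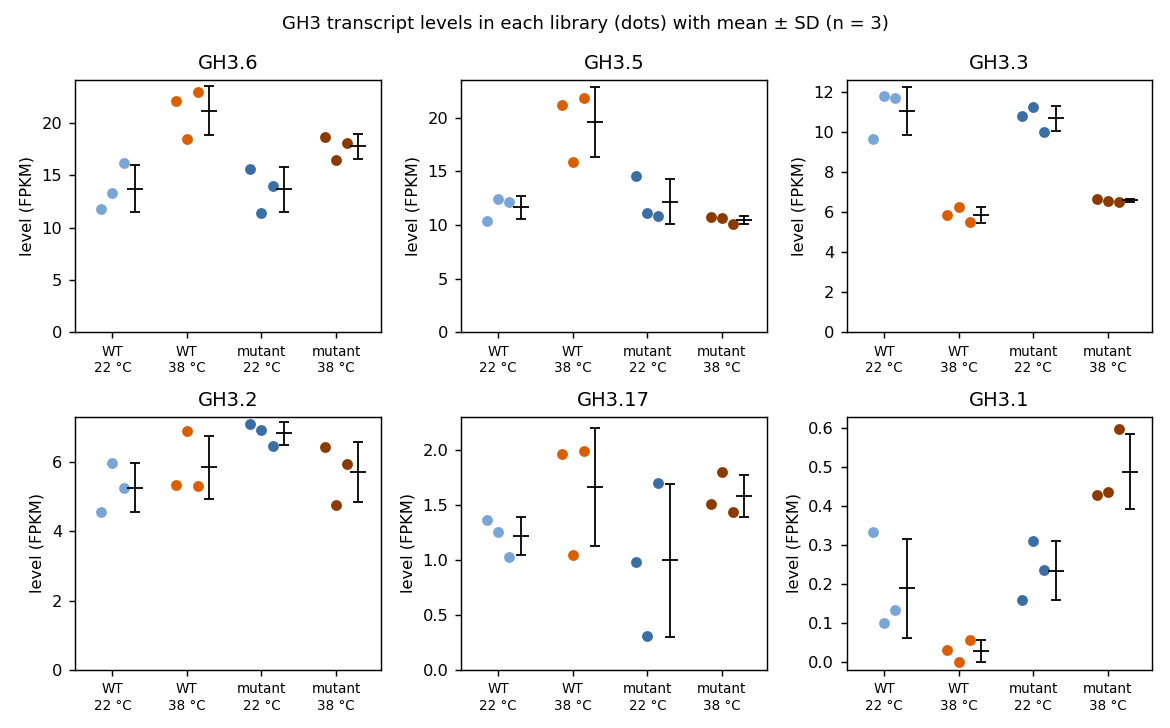
FPKM of the 6 GH3 genes, 1 panel per gene with its own linear axis; each dot is 1 of 12 libraries, by group, and the bar beside the dots is the group mean with its SD (n = 3). GH3.5 stands at 15.8 to 21.8 FPKM in wild type at 38 °C and at 10.08 to 14.6 in every library of the other groups, and GH3.3 is lower at 38 °C in both genotypes.

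GH3.5 (also WES1), which conjugates auxin and is known to act on salicylic acid and benzoates as well, was highest in heated wild-type flowers. In wild type it measured 10.4, 12.4 and 12.1 FPKM at 22 °C and 21.2, 15.8 and 21.8 at 38 °C. In the mutant it measured 14.6, 11.1 and 10.8 FPKM at 22 °C and 10.7, 10.6 and 10.08 at 38 °C. Every heated wild-type library was thus above all 9 others, and the heated mutant libraries lay below the unheated mutant ones, the closest at 10.7 against 10.8. The mean went from 11.7 ± 1.10 to 19.6 ± 3.29 FPKM in wild type (SD, n = 3) and from 12.2 ± 2.101 to 10.5 ± 0.337 in the mutant. Log2 changes here and below come from the edgeR fit on counts. That fit is scaled otherwise than FPKM, so a log2 change need not match the ratio of FPKM means. The log2 change with heat was 0.65 (SE 0.15) in wild type and -0.32 (SE 0.15) in the mutant. At 38 °C the mutant held 53.4% of the wild-type level by FPKM, and the fitted log2 difference was -0.95 (SE 0.15). At 22 °C the genotypes differed by 0.03 (SE 0.15) and their libraries overlapped. The heat response of the mutant minus that of wild type was -0.98 (SE 0.21), which was called. It was still called without wild type 38 °C replicate 2 or mutant 22 °C replicate 3, but not with any of the other 10 libraries left out, at -1.11 to -0.82 over all 12 removals. Without the 3 libraries that stood apart, the change with heat in wild type was 0.84 and the genotype difference at 38 °C was -1.10, both called, and the difference of the responses was -1.21, not called. In wild type at 38 °C the library with the lowest GH3.5 level also had the lowest tapetum marker sum, 71.0 FPKM against 171 and 179. In wild type at 22 °C GH3.5 and the sum had the same order over libraries. In the mutant at 22 °C the library with the highest GH3.5 had the highest sum, 147 against 56.4 and 98.9. The mutant library with the lowest GH3.5 did not have the lowest sum, at 98.9 against 56.4 at 22 °C and 111 against 98.3 at 38 °C. Across groups, wild type 38 °C replicate 2 had 15.8 FPKM of GH3.5 at a sum of 71.0, and wild type 22 °C replicate 2 had 12.4 at 158. The part of tapetum content was not tested. As in all of these whole-flower samples, fewer cells of a type and less RNA per cell cannot be told apart.

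GH3.6 (also DFL1), the close paralog of GH3.5, was the most abundant member and was higher after heat in both genotypes. It measured 11.7, 13.3 and 16.2 FPKM in wild type at 22 °C and 22.0, 18.5 and 22.9 at 38 °C. In the mutant it measured 15.6, 11.4 and 14.0 FPKM at 22 °C and 18.7, 16.4 and 18.1 at 38 °C. Heated and unheated libraries did not overlap in either genotype. The log2 change was 0.53 (SE 0.15) in wild type and 0.27 (SE 0.15) in the mutant, of which the first was called and the second was not. The wild-type call was lost without wild type 22 °C replicate 1 or 2 or wild type 38 °C replicate 1 or 3, with a log2 change of 0.42 to 0.73 over all removals; without the 3 libraries that stood apart it was 0.67 and called. The 2 responses differed by -0.26 (SE 0.21), which was not called, and the genotypes overlapped at each temperature. So GH3.5 and GH3.6, which stood at 19.6 and 21.2 FPKM in heated wild type, stood at 10.5 and 17.8 in the heated mutant.

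GH3.3, which codes for another enzyme that joins IAA to amino acids and is auxin-induced, was lower after heat in both genotypes. It measured 9.67, 11.8 and 11.7 FPKM in wild type at 22 °C and 5.85, 6.26 and 5.50 at 38 °C. In the mutant it measured 10.8, 11.3 and 10.02 FPKM at 22 °C and 6.67, 6.59 and 6.53 at 38 °C. All 6 heated libraries were below all 6 unheated ones. By FPKM, heated flowers held 53.0% of the 22 °C level in wild type and 61.7% in the mutant. The fit on counts gave log2 changes of -1.01 (SE 0.10) in wild type and -0.80 (SE 0.10) in the mutant. Both were called, and both were still called with any 1 library left out. The 3 heated mutant libraries lay above the 3 heated wild-type libraries, but the log2 difference of 0.13 (SE 0.10) was not called, nor was the difference of the responses, 0.21 (SE 0.14).

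GH3.2 (also BRU6 or YDK1), the paralog of GH3.3, was not called in any comparison. It measured 4.56, 5.98 and 5.26 FPKM in wild type at 22 °C and 5.33, 6.90 and 5.32 at 38 °C. In the mutant it measured 7.12, 6.94 and 6.47 FPKM at 22 °C and 6.44, 4.77 and 5.96 at 38 °C. The wild-type libraries overlapped across temperature, whereas all 3 unheated mutant libraries were above all heated mutant libraries and above all unheated wild-type ones. Its log2 changes were 0.06 (SE 0.15) with heat in wild type, -0.37 (SE 0.15) with heat in the mutant, and 0.35 (SE 0.15) between genotypes at 22 °C. A neighbour in sequence, GH3.4, shares 90.9% of its coding bases with GH3.2 and was at or near 0 in every group (means up to 0.015 FPKM). The longest identical stretch between the coding regions was 65 bases for that pair, 56 for GH3.2 and GH3.3 and 42 for GH3.5 and GH3.6, all shorter than the 150-base reads, though the treatment of reads that match more than 1 gene is not stated.

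GH3.17, an enzyme with a preference for glutamate, was low and spread widely between libraries. It measured 1.36, 1.25 and 1.03 FPKM in wild type at 22 °C and 1.96, 1.05 and 1.99 at 38 °C. In the mutant it measured 0.977, 0.307 and 1.70 FPKM at 22 °C and 1.51, 1.80 and 1.43 at 38 °C. Libraries overlapped in each of the 4 comparisons of groups, the SEs of its log2 changes were 0.47, and none was called. The lowest value, 0.307, came from mutant 22 °C replicate 2, which also had the lowest green-tissue marker sum of the 12 libraries, 1383 FPKM; the part of green tissue was not tested.

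GH3.1 was near the detection limit. Its deposited counts were 35, 12 and 15 in wild type at 22 °C and 4, 0 and 7 at 38 °C. In the mutant they were 16, 31 and 26 at 22 °C and 41, 49 and 66 at 38 °C. Heated wild-type libraries were all under a floor of 12 counts, and heated mutant libraries were above all 9 others. The floor was set for 3 fragments on the assumption of about 4 counts each, which the labels do not state. In FPKM the group means were 0.189 ± 0.127, 0.0287 ± 0.0279, 0.235 ± 0.0754 and 0.488 ± 0.0961 (SD, n = 3). The fit called the gene lower with heat in wild type and higher in the mutant than in wild type at 38 °C, but both calls are against the group whose libraries did not pass the low-count filter, so they are given no weight. No fold is given, since a fitted fold at such counts depends on the prior count. The first call held with 1 library removed only when that was wild type 22 °C replicate 2, wild type 38 °C replicate 3 or mutant 22 °C replicate 2, and the second was lost without wild type 38 °C replicate 1 or mutant 38 °C replicate 3. Without the 3 libraries that stood apart neither was called.

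**Figure D2:**
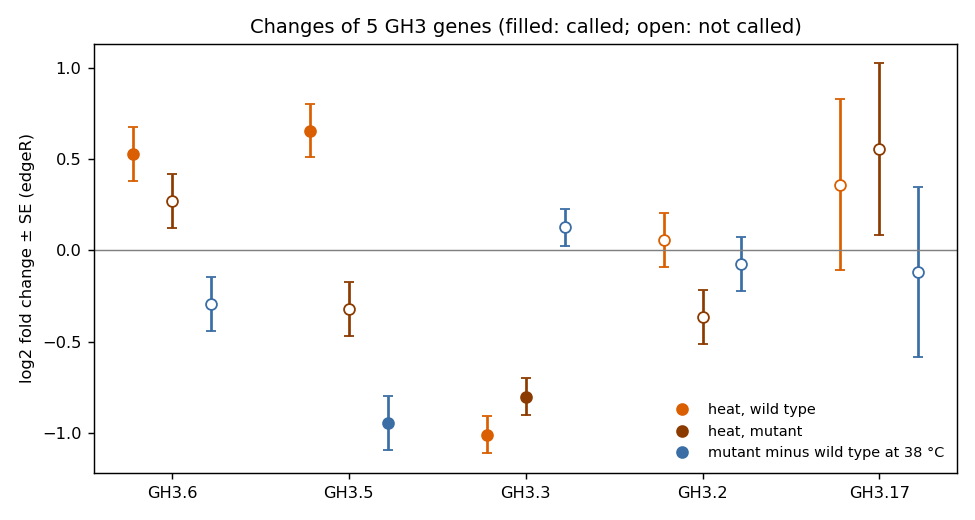
Log2 changes of 5 GH3 genes (GH3.1 is not drawn, its counts being too low for a fold) from the edgeR fit over all tested genes, for heat in wild type, heat in the mutant, and mutant minus wild type at 38 °C; points are estimates, bars are 1 SE, and filled points were called at an adjusted p below 0.05. GH3.3 lies at -1.01 and -0.80 with heat, while GH3.5 lies at 0.65 in wild type and -0.32 in the mutant.

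Counted together, 4 of 6 members were called with heat in wild type (GH3.5 and GH3.6 higher, GH3.1 and GH3.3 lower), where 30.7% of all tested genes were called (14.3% higher and 16.4% lower). With heat in the mutant 1 of 6 was called (GH3.3, lower), against 24.9% of tested genes (11.3% higher and 13.6% lower). Between genotypes at 38 °C 2 of 6 were called (GH3.1 higher and GH3.5 lower in the mutant), against 9.62% (4.36% higher and 5.26% lower). At 22 °C none was called by edgeR, DESeq2 or limma, with 1 at an unadjusted p under 0.05, against 0.191% of tested genes called by edgeR (0.161% higher and 0.0297% lower). For the difference of the heat responses 1 was called (GH3.5, lower), against 1.59% (0.407% higher and 1.18% lower). Libraries of the groups did not overlap for 4, 5, 1 and 3 members between temperatures in wild type, between temperatures in the mutant, and between genotypes at 22 °C and at 38 °C, in that order, where 46.7%, 40.6%, 12.5% and 29.7% of tested genes did not overlap. Because the members were chosen with these values known, nothing is read from these counts; the 2 heat comparisons also share libraries with the 2 genotype comparisons.

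The total GH3 transcript level of the 6 genes and its makeup are given next. Summed FPKM was 38.1, 44.9 and 46.4 in wild type at 22 °C and 56.4, 48.5 and 57.6 at 38 °C. In the mutant the sum was 49.2, 41.3 and 43.3 at 22 °C and 44.4, 40.7 and 42.7 at 38 °C. Heated wild-type libraries had higher sums than unheated ones without overlap (means 54.2 ± 4.93 and 43.1 ± 4.45), while the mutant libraries overlapped across temperature (42.6 ± 1.89 and 44.6 ± 4.16). GH3.3 made up 25.7% of the sum in wild type at 22 °C and 10.9% at 38 °C, and 24.1% and 15.5% in the mutant. GH3.5 made up 27.1% and 36.0% in wild type, and 27.2% and 24.6% in the mutant. GH3.6 made up 31.7% and 39.0% in wild type and 30.5% and 41.6% in the mutant, the largest share in each group.

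**Figure D3:**
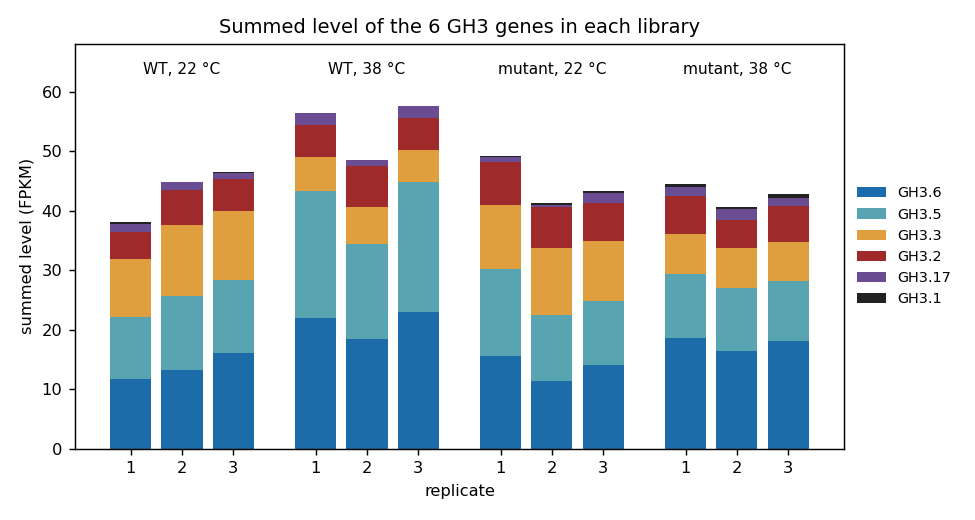
Summed FPKM of the 6 GH3 genes, 1 bar for each of the 12 libraries in 4 groups, stacked by gene; the axis is linear and starts at 0. The wild-type libraries at 38 °C sum to 48.5 to 57.6 FPKM and the mutant libraries at 38 °C to 40.7 to 44.4.

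Across the 12 libraries, the genes most like each member were those with the highest Pearson correlation of log2(FPKM + 1) among 20009 genes of mean FPKM of at least 1. For GH3.5 they were TPS11 (0.949), AT5G63350 (0.940) and TPS8 (0.937), where TPS11 and TPS8 code for proteins of the trehalose-6-phosphate synthase family. For GH3.6 they were AT3G52670 (0.940), SRPK4 (0.935) and AT5G49380 (0.932), and for GH3.3 the transaldolase TRA2 (0.982), the 14-3-3 protein gene GRF2 (0.982) and MAP65-5 (0.979), which codes for a protein that bundles microtubules. For GH3.2 the highest values were 0.938 with ARK2, an armadillo-repeat kinesin, and 0.904 with REV, a homeodomain-leucine zipper factor. The highest values for GH3.17 and GH3.1 were 0.954 with RGF6 and 0.969 with AT5G02480, where GH3.1 counts ran from 0 to 66. These are descriptions over libraries that share the heat and genotype groups.

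Of the 13 other GH3 genes, 10 were tested. GH3.10 (also DFL2), the strongest among them in heated flowers, rose from 16.5 ± 1.64 to 23.2 ± 1.11 FPKM with heat in wild type (SD, n = 3). In the mutant it rose from 17.6 ± 1.20 to 34.1 ± 3.39 FPKM. The fitted log2 change was 0.40 in wild type (SE 0.09, edgeR adjusted p = 0.00587) and 0.85 in the mutant (SE 0.09, edgeR adjusted p = 1.48e-04). GH3.10 was higher in the mutant at 38 °C by 0.52 (SE 0.09, edgeR adjusted p = 0.00447), whereas the difference of the responses, 0.45 (SE 0.13), had an edgeR adjusted p of 0.105. GH3.15, which in Arabidopsis acts on the auxin precursor indole-3-butyric acid, rose in wild type by 1.34 (SE 0.36, edgeR adjusted p = 0.0159), and this p was 0.0504 when leaving out wild type 22 °C replicate 3. JAR1, which makes the active jasmonate conjugate with isoleucine, rose in the mutant by 0.81 (SE 0.25, edgeR adjusted p = 0.0331), and this p reached 0.112 when leaving out mutant 22 °C replicate 2 or mutant 38 °C replicate 2 or 3. PBS3, which conjugates a precursor of salicylic acid, had log2 changes of -0.47 (SE 0.36) and 0.45 (SE 0.36) and was not called. The median log2 change of the 10 tested genes was -0.05 in wild type and 0.28 in the mutant, beside -0.05 and -0.00 for all tested genes.

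The 8 lists held 98 genes, of the auxin pathway and of the other GH3 family. That family includes JAR1 and PBS3, which act on other hormones than auxin. Of the 98 genes, 88 were tested. With heat in wild type 7 were called higher and 17 lower (27.3% of those tested, beside the 30.7% of all genes). With heat in the mutant 5 were higher, GH3.10 and JAR1 among them, and 13 lower (20.5%, beside 24.9%). These splits depend on the scaling: with libraries scaled on 10 reference genes, which moved the median of all genes by 0.26 in wild type and 0.21 in the mutant, 15 were higher and 4 lower in wild type and 16 higher and 1 lower in the mutant. Between genotypes at 38 °C 3 were higher and 3 lower in the mutant (6.82%, beside 9.62%). At 22 °C none was called by edgeR, DESeq2 or limma, with 4 at an unadjusted p under 0.05. For the difference of the heat responses 1 was called (TIR1, lower), which is 1.14% of those tested, beside 1.59% of all tested genes.

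Among 7 genes of the amidohydrolase family, some members of which release IAA from conjugates, 1 was called higher and 2 lower with heat in wild type. In the mutant 1 was higher and 1 lower, and 1 was called in all without mutant 22 °C replicate 1 or mutant 38 °C replicate 1. Of all tested genes, 14.3% were called higher and 16.4% lower in wild type, and 11.3% and 13.6% in the mutant. ILL5 was near absent at 22 °C, with counts of 0, 4 and 0 in wild type and 0 in all 3 mutant libraries, and had counts of 255, 153 and 212 in heated wild type and 172, 437 and 132 in the heated mutant. It was the 1 called higher in each genotype. Since it passed the low-count filter only through the heated libraries, these calls are given no weight, though the totals above count them. ILL3 fell by 0.80 in wild type (SE 0.13, edgeR adjusted p = 0.00110), and ILR1 fell by 0.37 (SE 0.09, edgeR adjusted p = 0.00753), a call that was lost under the reference-gene scaling. DAO1, the dioxygenase that oxidises IAA, fell in wild type by a fitted 0.44 (SE 0.09, edgeR adjusted p = 0.00390), a call also lost under that scaling. Its wild-type mean was 11.4 ± 0.818 FPKM at 22 °C and 9.01 ± 0.551 at 38 °C. At 38 °C DAO1 was higher in the mutant by 0.38 (SE 0.09, edgeR adjusted p = 0.0221), and this p reached 0.0778 when leaving out wild type 38 °C replicate 2 or 3 or mutant 38 °C replicate 2 or 3.

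On the side of auxin supply, 1 of 8 tested biosynthesis genes was called in wild type (YUC4, lower) and 2 in the mutant (TAA1 and TAR2, lower). Among 12 transport genes 4 were called lower in wild type and 3 in the mutant. Of all tested genes, 16.4% were called lower in wild type and 13.6% in the mutant, and nothing is read from the counts of such short lists. With 1 library left out, the biosynthesis count ran from 0 to 2 in wild type, moving without wild type 22 °C replicate 3, wild type 38 °C replicate 1 or 2 or mutant 38 °C replicate 1. In the mutant it ran from 0 to 2, moving without any of the mutant libraries except 22 °C replicate 3. The transport count in wild type ran from 1 to 4, falling by over 1.5 times without any wild-type library, mutant 22 °C replicate 1 or mutant 38 °C replicate 3. The auxin importer gene LAX2 fell by 0.64 in wild type (SE 0.10, edgeR adjusted p = 7.40e-04) and by 0.45 in the mutant (SE 0.10, edgeR adjusted p = 0.00735), the second lost under the reference-gene scaling. The calls of YUC4, TAA1, TAR2 and the efflux carrier genes PIN4 and PIN8 were each lost with some single library left out and under the reference-gene scaling.

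Perception and response genes were called in both directions with heat. So were tested genes as a whole, at 14.3% higher and 16.4% lower in wild type and 11.3% and 13.6% in the mutant. TIR1, an F-box auxin receptor, measured 43.4, 44.8 and 43.3 FPKM in wild type at 22 °C and 59.3, 58.6 and 59.2 at 38 °C, and 51.6, 49.8 and 44.96 in the mutant at 22 °C and 46.2, 41.8 and 43.4 at 38 °C. As with GH3.5, heated wild-type libraries were above all 9 others. TIR1 rose by 0.33 with heat in wild type (SE 0.07, edgeR adjusted p = 0.00338) and fell by 0.26 in the mutant (SE 0.07, edgeR adjusted p = 0.0162), although under the reference-gene scaling the latter value was -0.06 and not called, nor was it without mutant 22 °C replicate 1 or 2 or mutant 38 °C replicate 3. The difference of the responses was -0.60 (SE 0.10, edgeR adjusted p = 0.0172), and this p reached 0.0629 when leaving out wild type 22 °C replicate 1 or 2, wild type 38 °C replicate 1 or mutant 38 °C replicate 3. Of 12 ARF genes 2 were called higher and 3 lower in wild type, and 3 lower in the mutant. The ARF count ran from 2 to 5 in wild type with 1 library left out, with the larger drops without any wild-type library, mutant 22 °C replicate 1 or mutant 38 °C replicate 3, and from 1 to 3 in the mutant, with the larger drops without mutant 22 °C replicate 2 or mutant 38 °C replicate 2. ARF17 rose by 0.66 in wild type (SE 0.14, edgeR adjusted p = 0.00428) and ARF1 fell by 0.51 in the mutant (SE 0.10, edgeR adjusted p = 0.00357). Of 29 Aux/IAA repressor genes 1 was called higher and 5 lower in wild type, and 2 higher and 2 lower in the mutant. The wild-type count ran from 4 to 7 with 1 library left out, and the mutant count from 1 to 6, moving by over 1.5 times without mutant 22 °C replicate 1 or 2 or mutant 38 °C replicate 1 or 2; IAA3 and IAA5, the genes called higher there, were each lost in some removals. IAA13 fell by 0.78 in wild type (SE 0.10, edgeR adjusted p = 2.42e-04) and IAA27 by 0.65 (SE 0.09, edgeR adjusted p = 3.01e-04). IAA26 rose by 0.66 in wild type (SE 0.12, edgeR adjusted p = 0.00199) and was lower in the mutant at 38 °C by 0.77 (SE 0.12, edgeR adjusted p = 0.00308), and IAA3 was higher there by 1.23 (SE 0.23, edgeR adjusted p = 0.00716).

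**Figure D4:**
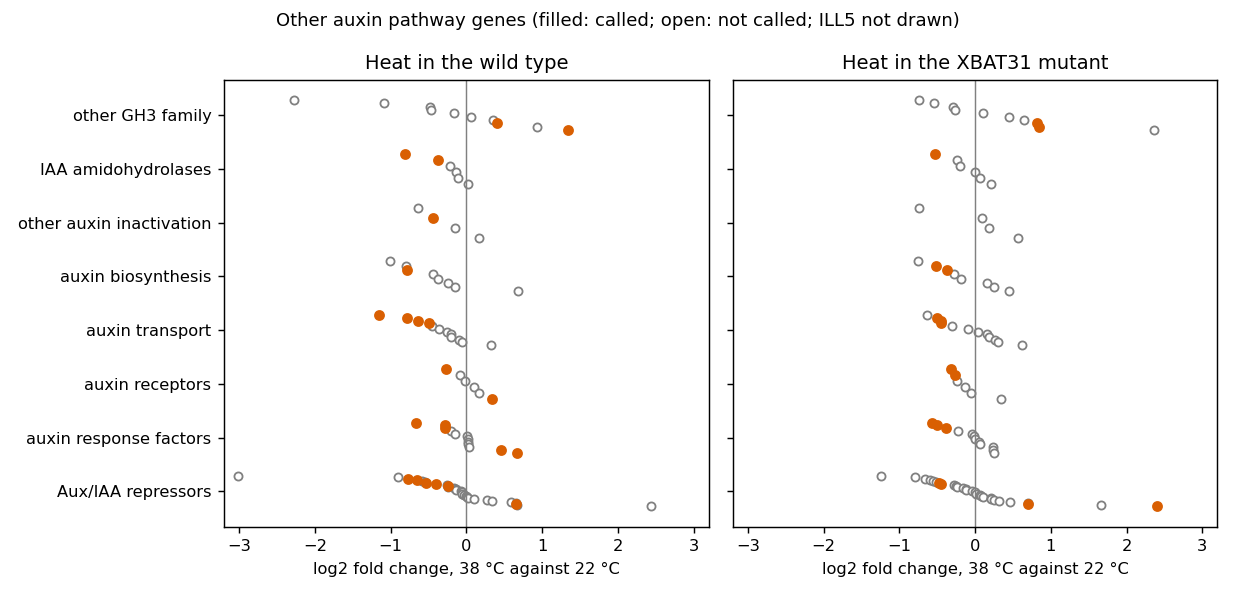
Log2 change with heat of the tested genes of 8 lists (auxin pathway genes and the other GH3 genes), 1 row per list. Wild type is on the left and the XBAT31 mutant on the right. Each point is a gene, and filled points were called (edgeR adjusted p below 0.05). Vertical offsets within a row only separate points, and ILL5 is not drawn. Of 88 tested genes 7 were called higher and 17 lower in wild type, and 5 higher and 13 lower in the mutant, splits that turn under the reference-gene scaling.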

How the data were processed

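Messenger RNA of 12 flower libraries was measured by RNA sequencing of poly(A) RNA, with second strands marked by dUTP and paired 150-base reads, per the labels' protocols. Per the submitters' processing notes, the tools were StringTie 1.3.4d, HISAT2 2.0.4 and cutadapt 1.9, and the build was TAIR10; which tool did what is not stated. The values tested are the deposited expected counts, whole numbers per gene made by the authors in a way that the labels leave unsaid, with no scaling to depth. The FPKM values were deposited beside them, scaled by the authors to transcript length and depth. Of values from 1 to 20 in genes of 1 transcript, 47.2% are multiples of 4, so counts are not taken as independent reads and no counting intervals are given; floors cover counting error only. The strand setting of the counting is not stated.

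Counts were fitted with edgeR 4.0.16 (R 4.3.3), quasi-likelihood test, on all libraries at once with a mean for each group, leaving 8 residual degrees of freedom, filterByExpr with a minimum count of 10 (4130 genes removed) and trimmed-mean scaling. A gene was called at a Benjamini-Hochberg adjusted p below 0.05 over all 23585 genes of a comparison, two-sided. In simulated data with 1 common dispersion, the fit recovered 37% of 100 genes changed by log2 1. It recovered 96% of 100 genes changed by log2 2, with 3 false calls. A gene that was not called may therefore still have changed by log2 1, or by more where its spread was wide. The simulation sets no bound, because SEs differed between genes. With heat in wild type the SE was 0.07 for TIR1 and 1.03 for GH3.18, which stood at -2.28 and was not called. No label ties replicates to plants or days, so p-values measure the spread between these libraries. Likeness used log2(FPKM + 1).

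The members, the lists of pathway genes and the rule for naming were chosen with earlier results of these data known. The rule named the members, the other GH3 genes, up to 4 genes of each list with the smallest p per comparison, the 3 genes most like each member, and XBAT31. Upstream windows and coding identity were read from the RefSeq annotation of TAIR10.1 with Biopython 1.88; of 26110 genes matched by locus, 32.8% had the same start and 32.1% the same end in the deposited table, and 95.8% of those with a coding region had it inside the deposited gene. Alternatives were DESeq2 1.42.0 and its size factors, no filter, counts divided by 4, only the groups compared, a replicate block, limma 3.58.1 on log2(FPKM + 1) or log2(FPKM + 0.1), and each library left out. Reference-gene scaling and leaving out the 3 libraries that stand apart were chosen after seeing the data.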

Additional observations from a re-analysis of the deposited data

Results flagged for a closer look

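For TIR1 the heat response of the mutant minus that of wild type was called, at -0.60 (log2, SE 0.10, edgeR adjusted p = 0.0172). All 3 heated wild-type libraries were above the unheated ones. TIR1 was 1 of 88 tested genes of the 8 lists called for this difference (1.14%, beside 1.59% of all tested genes). The call was lost without the 3 libraries that stand apart. It was also lost without wild type 22 °C replicate 1 or 2, wild type 38 °C replicate 1 or mutant 38 °C replicate 3. For GH3.5 the difference was -0.98 (log2, SE 0.21): all 3 heated wild-type libraries were above their unheated ones and all 3 heated mutant libraries below theirs. GH3.5 was chosen with these values known, so its difference is a description, no p-value is given, and nothing is concluded from its being called.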

How the results depend on the processing

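No called result given here changed sign under any alternative run. With heat in wild type, the number of members called ran from 2 to 4 with 1 library left out; with heat in the mutant it was 1 under every removal and 2 with reference-gene scaling, which added GH3.6 (log2 0.48). Between genotypes at 38 °C it was 1 with limma on genes of mean FPKM of at least 1, where GH3.1 was not tested, and 1 without the 3 libraries that stand apart, and ran from 1 to 2 with 1 library left out. For the difference of the responses it was 0 with the replicate block, 0 with limma at either pseudocount, 0 without the 3 libraries that stand apart, 2 with DESeq2 (GH3.1 added), and ran from 0 to 1 with 1 library left out; a fit of only the groups compared does not apply to it. The cause of these moves was not tested. Of all genes, 45 were called at 22 °C between genotypes with edgeR and 245 with DESeq2, 2269 and 4028 at 38 °C, and 374 and 1846 for the difference, which gave 128 with the replicate block. Same-numbered replicates did not deviate together (correlations from -0.28 to 0.0293), so the numbers were not taken to pair libraries. GH3.1 was also not called lower with heat in wild type under the replicate block, reference-gene scaling, limma or the groups compared alone. No fold is given for GH3.1 and ILL5, whose counts were at or under the floor of 12 in a whole group.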
